A study of Homo sapiens with 6 samples.

Results

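The transcription elongation and 3′ end processing machinery was examined here as a group of 57 genes, chosen by name because they encode subunits or regulators of the complexes that carry RNA polymerase II along a gene and release the finished transcript, with no measured value in the rule, although earlier results of these data were known when the list was drawn up. The count table held 60664 genes. All 57 members were in it, and 55 had the 10 counts in total over the libraries that were needed for a test, as did 29022 genes in all. The members fell into 11 complexes: P-TEFb with its 7SK regulators, the CDK12/CDK13-cyclin K kinases, DSIF with SPT6, NELF, the PAF1 complex with RTF1, the ELL, AFF4 and TFIIS group, Integrator, CPSF with poly(A) polymerase, CFIm, CSTF and CFIIm.

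The samples were U-2 OS cells, a human osteosarcoma line that the labels describe as polyploid, transfected either with control siRNA (siControl) or with siRNA against SFPQ (siSFPQ), an RNA and DNA binding protein of the nucleus. The treatment protocol gives 30 nM siRNA, and 3 replicate libraries of poly(A)-selected RNA per condition were sequenced in pairs of 150-base reads. The study used this experiment to ask how the transcriptome responds to loss of SFPQ, and for the members the comparison of siSFPQ with siControl asks which parts of the machinery changed their RNA level.

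During elongation, the polymerase first pauses shortly downstream of the start site, held by DSIF and NELF. P-TEFb releases it by phosphorylating these factors and the tail of the polymerase, while the 7SK particle keeps P-TEFb inactive in reserve. DSIF, SPT6, the PAF1 complex, the super elongation complex and CDK12 and CDK13 then accompany the polymerase through the gene body. Integrator cleaves RNA near promoters and at small nuclear RNA genes. CPSF recognises the AAUAAA signal and cuts the RNA at the end of most genes, together with CSTF, CFIm and CFIIm, and poly(A) polymerase adds the tail.

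Library totals were 46142855 to 47119203 counts in siControl and 43469321 to 45543610 counts in siSFPQ. SFPQ, the targeted gene, had 22338, 23139 and 21753 counts in siControl and 3140, 3863 and 3151 in siSFPQ. The conditions were far apart, with a log2 fold change of −2.73 (SE 0.05, edgeR adjusted p = 6.34e-30). All 6 markers of the mesenchymal and osteoblast lineage had at least 10 counts, with a summed level of 7743 to 8351 CPM (counts scaled to one library size) in siControl and 6702 to 6815 in siSFPQ, although COL1A2 stayed at 0.679 to 1.19 CPM in every library. Within this sum VIM was higher in siSFPQ (923 to 925 CPM against 1130 to 1171), while FN1, COL1A1 and SPARC were lower in every siSFPQ library. RUNX2 overlapped between the conditions, at 55.7 to 58.8 CPM in siControl and 58.2 to 61.4 in siSFPQ. The 3 epithelial markers summed to 13.6 to 16.7 CPM in siControl and 34.3 to 37.2 in siSFPQ. Most of this difference was carried by CLDN4 (8.15 to 9.60 against 27.8 to 31.1 CPM). CDH1 was also higher in every siSFPQ library (0.657 to 1.44 against 1.56 to 2.07 CPM). EPCAM overlapped between the conditions and was at most 5.64 CPM in siControl and 4.88 CPM in siSFPQ. Of the haematopoietic markers 1 of 3 had at least 10 counts, and their sum was at most 0.877 CPM. The part of such markers in the members' values was not tested. In bulk RNA, fewer cells that express a gene and less of its RNA per cell cannot be told apart.

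Most of the machinery kept its RNA within a narrow range, and a few subunits left it. At an adjusted p under 0.05 (edgeR quasi-likelihood test, Benjamini-Hochberg over 29022 genes), 19 of the 55 members tested were higher in siSFPQ, 13 were lower and 23 were not called. Scaled to library size alone, without TMM factors, the split was 25 higher and 11 lower. Over all genes tested, 22.4% were higher and 22.1% lower. Members were far more abundant than the typical gene in the table, with a median of 71.3 CPM and 54 of 55 at 10 CPM or more. Among the 10218 genes of at least 10 CPM, 31.4% were higher and 38.8% lower, against 34.5% and 23.6% of the members. The median log2 fold change of the members was 0.01, beside 0.02 over all genes tested and −0.03 over genes of at least 10 CPM. Without regard to sign, the median change was 0.15 for members, 0.22 for genes of at least 10 CPM and 0.43 for all genes tested.

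Few members changed by much. With a log2 fold change over 0.5 in size added to the call, SUPT5H was the 1 member higher and INTS9, INTS2, WDR33, INTS4 and ELL2 were the 5 lower. Without siControl replicate 1 there were 2 higher, as CCNK reached 0.52. Without siSFPQ replicate 1 there were 3 lower, as ELL2 came to −0.49 and INTS4 to −0.4998, both still called. The corresponding shares were 12.9% higher and 12% lower of all genes tested, and 7.56% higher and 13.4% lower of genes of at least 10 CPM. At the size of 1.5 that the study's methods use, edgeR called 0 members in either direction, DESeq2 called 0, and 0 passed an unadjusted p under 0.05 with that size. Of all genes tested 5.54% were higher and 4.77% lower at that size, and of genes of at least 10 CPM 0.382% and 3.07%. The conditions did not overlap for 22 members that lay higher in siSFPQ and 15 that lay lower, where 74.8% of genes of at least 10 CPM had no overlap in either direction. The spread that these calls rest on was small: the coefficient of variation of a member between replicates had a median of 3.18% in siControl and 2.72% in siSFPQ, and its highest values were 9.27% and 9.30%.

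**Figure D1:**
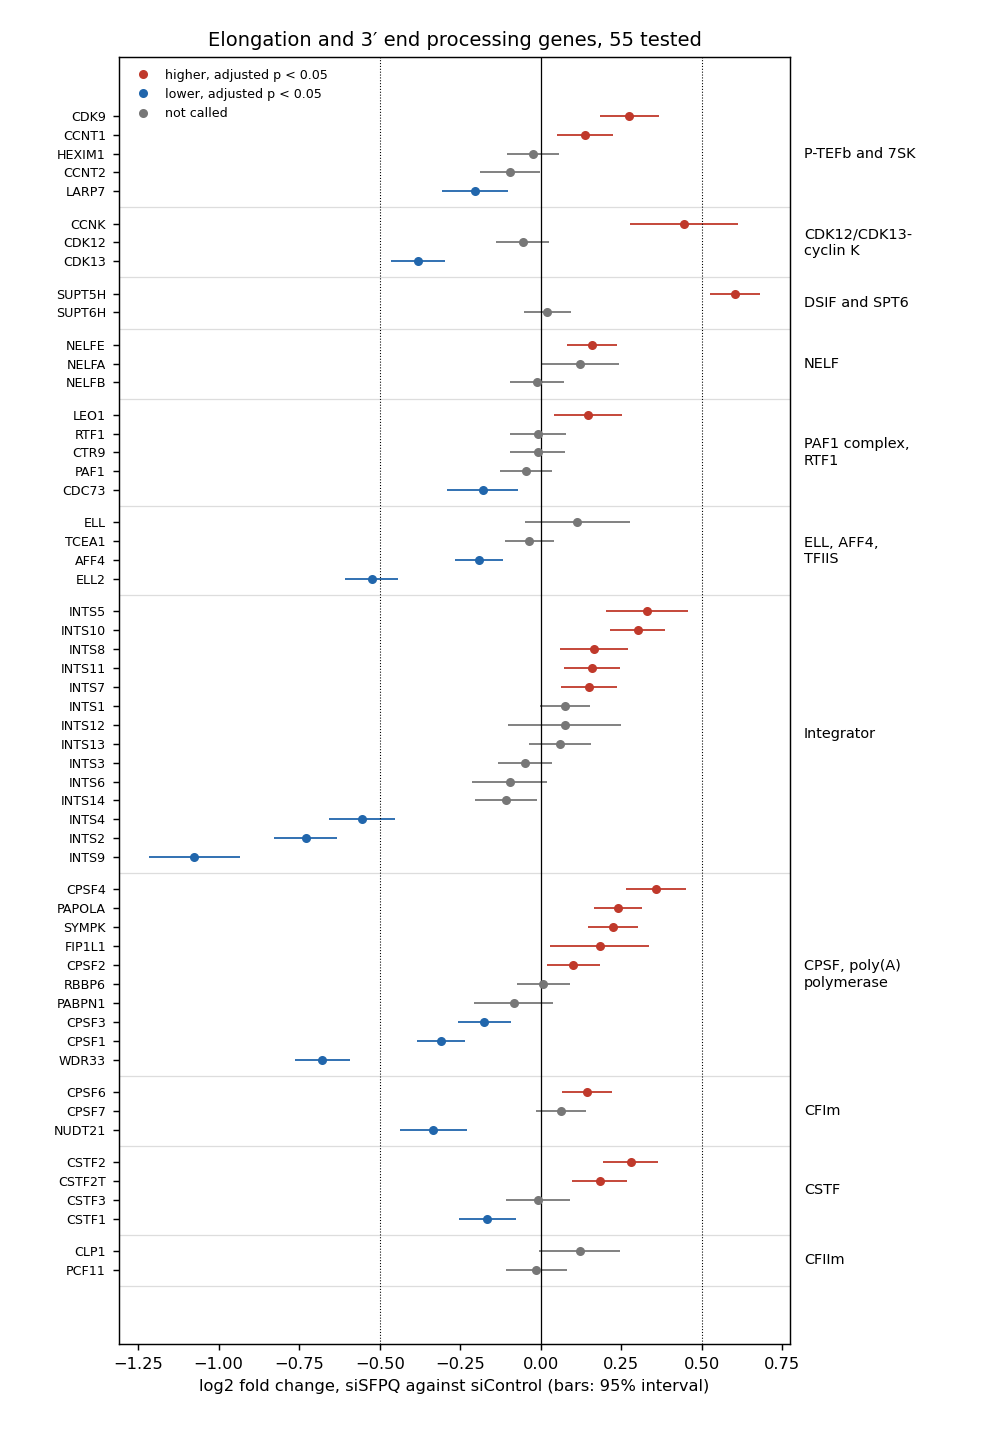
Log2 fold change of siSFPQ against siControl for the 55 members tested, sorted within each complex, with points coloured by call at an adjusted p under 0.05, horizontal bars for the 95% interval and dotted lines at a change of 0.5 in either direction. SUPT5H lies beyond the right line and ELL2, INTS4, INTS2, INTS9 and WDR33 beyond the left, while most complexes hold members on both sides of 0.

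Among the members with the largest changes, 3 of those that fell are shown with the DNA just upstream of their start, to let their promoters be compared with the rest of the group. Sequences are those RefSeq gives for GRCh38.p14, 5′ to 3′ on the strand of the gene, all on the minus strand. Printed are the bases of the 250-base window before the RefSeq start that lie upstream of every exon GENCODE gives the gene: chr17:61928017-61928232 for INTS2 (216 bases), chr11:77994716-77994918 for INTS4 (203 bases) and chr2:127811188-127811421 for WDR33 (234 bases). Capitals mark motif matches.
INTS2: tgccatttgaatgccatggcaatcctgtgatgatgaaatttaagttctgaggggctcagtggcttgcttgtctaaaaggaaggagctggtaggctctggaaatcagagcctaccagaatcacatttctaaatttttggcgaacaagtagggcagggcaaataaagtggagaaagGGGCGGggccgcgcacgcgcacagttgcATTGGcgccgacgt
INTS4: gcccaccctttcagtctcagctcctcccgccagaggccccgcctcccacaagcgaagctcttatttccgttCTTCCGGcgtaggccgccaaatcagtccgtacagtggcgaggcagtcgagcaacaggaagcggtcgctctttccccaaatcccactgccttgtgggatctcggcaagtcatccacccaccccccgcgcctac
WDR33: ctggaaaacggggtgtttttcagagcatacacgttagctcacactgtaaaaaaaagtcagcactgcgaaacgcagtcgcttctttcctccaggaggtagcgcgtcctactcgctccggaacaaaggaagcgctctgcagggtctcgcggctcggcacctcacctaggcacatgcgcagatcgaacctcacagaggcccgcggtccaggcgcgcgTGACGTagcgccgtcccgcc
INTS2 held a GC box and a CCAAT box in reverse, INTS4 an ETS core in reverse and WDR33 a cAMP response element core. The search covered both strands of the whole 250-base window for 5 motifs. The GC box was searched as GGGCGG, the ETS core as CCGGAAG and the CCAAT box by those letters. The cAMP response element core was searched as TGACGT, and a motif of the NRF1 type as GCATGCGC. No matches overlapped in the windows shown.

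RefSeq promoters were given for 49 of the 57 members. These members had 58 promoters, and shares are given per promoter. The shares are set beside those of all promoters. Shares for genes of at least 10 CPM alone were not computed. A GC box stood in 44 of the 58 (75.9%), against 42.6% of all 35116 promoters. The ETS core was found in 15 (25.9%), against 8.52% of all promoters, and the cAMP response element core in 15 (25.9%), against 7.10%. CCAAT was found in 21 (36.2% against 32.0%) and the NRF1 type motif in 5 (8.62% against 2.63%). Base composition moved with these shares: the median GC content was 65.2% over the 58 member promoters and 58% over all promoters, and its part in the shares was not tested. The 3 windows shown held different motifs, and that of SUPT5H, which rose, held a GC box as INTS2 did.

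P-TEFb is the kinase that releases paused polymerase, made of CDK9 with cyclin T1 (CCNT1) or cyclin T2 (CCNT2). CDK9 had 2996, 3002 and 2861 counts in siControl and 3665, 3424 and 3659 in siSFPQ. Every siSFPQ library lay above every siControl library. CDK9 rose from 2957 ± 76.9 to 3580 ± 216 normalized counts (SD, n = 3), by 0.28 on the log2 scale (SE 0.05, edgeR adjusted p = 4.7e-06). CCNT1, with 3160, 3361 and 3471 counts in siControl and 3576, 3717 and 3738 in siSFPQ, rose by less, with a log2 fold change of 0.14 (SE 0.04, edgeR adjusted p = 0.00804; 0.0537 without siControl replicate 1). CCNT2 had 3259, 3664 and 3425 counts in siControl and 3256, 3276 and 3180 in siSFPQ. Its conditions overlapped, and its log2 fold change of −0.10 had a 95% interval of −0.19 to −0.00 (edgeR adjusted p = 0.0863; 0.02 without siControl replicate 1).

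The 7SK side of the same module went the other way in 1 of its 2 members. LARP7, which binds and stabilises the 7SK RNA, had 1967, 2042 and 2016 counts in siControl and 1598, 1853 and 1797 in siSFPQ. All siSFPQ libraries were lower, and LARP7 fell by 0.20 on the log2 scale (SE 0.05, edgeR adjusted p = 0.001). HEXIM1, the 7SK-bound inhibitor of CDK9, had a log2 fold change of −0.02 with an interval of −0.11 to 0.06. The median of these 5 genes was −0.02.

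CDK12 and CDK13 phosphorylate the polymerase tail in the gene body and share cyclin K (CCNK) as their partner. CDK13 had 5291, 5255 and 4947 counts in siControl and 3745, 4230 and 3962 in siSFPQ. The highest siSFPQ library stayed below the lowest siControl library, and CDK13 fell by 0.38 on the log2 scale (SE 0.04, edgeR adjusted p = 1.82e-09). CDK12 had 6345, 6723 and 6099 counts in siControl and 5945, 6498 and 6061 in siSFPQ. Its groups overlapped, and its log2 fold change of −0.06 had an interval of −0.14 to 0.03 (edgeR adjusted p = 0.286).

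CCNK had 502, 420 and 452 counts in siControl and 592, 642 and 644 in siSFPQ. Its libraries did not overlap, and it rose from 459 ± 41.8 to 625 ± 12.7 normalized counts (SD, n = 3), by 0.45 on the log2 scale (SE 0.08, edgeR adjusted p = 3.04e-05). Of the annotated exon bases of CCNK, 59.5% are also exon of CCDC85C on the opposite strand, and the part of this overlap in the value was not tested. CCDC85C fell, with 2316, 2248 and 2059 counts in siControl and 1226, 1252 and 1195 in siSFPQ (log2 fold change −0.85, SE 0.05, edgeR adjusted p = 3.54e-15). Per length, CCNK was the lowest of the tested members in siControl, at 2.85 CPM per kb of its canonical transcript.

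SUPT5H encodes SPT5, the large subunit of DSIF, which travels with the polymerase from the pause to the end of the gene. SUPT5H (ENSG00000196235, chr19:39436156-39476670 on GRCh38) had 7352, 8003 and 7720 counts in siControl and 11491, 11666 and 11977 in siSFPQ. The conditions were far apart. Its level went from 7703 ± 320 to 11693 ± 241 normalized counts (SD, n = 3), a rise of 51.8% (log2 fold change 0.60, SE 0.04, interval 0.52 to 0.68, edgeR adjusted p = 4.12e-15). No exon base of SUPT5H is shared with another annotated gene. SUPT6H, the histone chaperone SPT6 that works beside DSIF, had a log2 fold change of 0.02 with an interval of −0.05 to 0.09.

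The small partner of SPT5 could not be followed. SUPT4H1 was counted at 0, 0 and 0 in siControl and 0, 0 and 1 in siSFPQ. Of its exon bases 89.9% are annotated in other genes, 63.7% in ENSG00000285897 on the same strand and 27.8% in TSPOAP1-AS1 on the opposite strand. ENSG00000285897 itself had 3 to 9 counts in siControl and 2 to 5 in siSFPQ.

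NELF holds the polymerase at the pause. NELFE, its RNA-binding subunit, had 5575, 5705 and 5555 counts in siControl and 6106, 6299 and 6448 in siSFPQ, without overlap. NELFE rose by 0.16 on the log2 scale (SE 0.04, edgeR adjusted p = 0.000702). NELFA, at 0.12 (edgeR adjusted p = 0.0998), and NELFB, at −0.01 (edgeR adjusted p = 0.857), were not called. NELFE was the most abundant member per length, at 85.0 CPM per kb in siControl and 94.9 in siSFPQ.

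NELFCD, which links the other NELF subunits, was counted at 0, 0 and 1 in siControl and 0, 0 and 1 in siSFPQ. Of its exon bases 97.4% are also exon of CTSZ, a lysosomal cysteine protease gene on the opposite strand, which had 14008, 15330 and 14865 counts in siControl and 11576, 13347 and 12950 in siSFPQ. At these depths 3 counts correspond to at most 0.0676 CPM.

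Counts near 0 were frequent in the table among genes with nearly all exon bases shared. Of 578 protein-coding genes with at least 90% of exon bases covered by exons of other genes, 515 had under 10 counts in total (89.1%). The share was 15.4% among the 2247 genes with 20% to under 90% covered, 5.95% among the 6618 with some but under 20% covered and 21.0% among the 10499 with none covered. Of the 33 genes covered to at least 90% by opposite-strand exons, 27 had under 10 counts (81.8%). The library kit kept strand, and whether the counting used it is not given in the sources used here. In all, 9 of the 57 members had at least 20% of their exon bases covered and 20 had none covered. When the count of calls was limited to members with under 20% covered, it was 16 higher and 11 lower.

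The PAF1 complex binds the elongating polymerase and helps to place histone marks over the gene body. LEO1 and CDC73, subunits of the same complex, were called in opposite directions. LEO1 had 1457, 1577 and 1525 counts in siControl and 1635, 1754 and 1678 in siSFPQ, and rose by 0.15 (log2; SE 0.05, edgeR adjusted p = 0.0198; 0.0749 without siControl replicate 1 and 0.0989 without siSFPQ replicate 2). CDC73, the parafibromin gene, had 1442, 1480 and 1432 counts in siControl and 1203, 1329 and 1326 in siSFPQ, and fell by 0.18 (log2; SE 0.05, edgeR adjusted p = 0.00672; 0.069 without siSFPQ replicate 1 and 0.0758 when scaled to library size alone). Neither gene's normalized counts overlapped between the conditions. The scaffold subunits PAF1 and CTR9 and the associated factor RTF1 had log2 fold changes of −0.05, −0.01 and −0.01 and were not called.

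ELL and ELL2 raise the speed of the polymerase within the super elongation complex, for which AFF4 is the scaffold. ELL2 (ENSG00000118985, chr5:95885098-95961851) had 5056, 5018 and 5018 counts in siControl and 3279, 3713 and 3542 in siSFPQ. The siControl libraries were nearly equal and all siSFPQ libraries lay well below them. ELL2 fell from 5038 ± 24.6 to 3503 ± 126 normalized counts (SD, n = 3; log2 fold change −0.52, SE 0.04, edgeR adjusted p = 5.84e-13). AFF4 also fell, with a log2 fold change of −0.19 (SE 0.04, edgeR adjusted p = 4.74e-05). ELL had 588, 577 and 551 counts in siControl and 665, 590 and 606 in siSFPQ, with a log2 fold change of 0.11 and an interval of −0.05 to 0.28 (edgeR adjusted p = 0.269). TCEA1, the TFIIS factor that restarts a backtracked polymerase, was at −0.04 and not called.

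Integrator was the complex with the widest range, from −1.08 to 0.33, and 3 of its 14 measured subunits fell by over 0.5. Of genes of at least 10 CPM 13.4% were called lower by over 0.5. INTS9 lies in the cleavage module, where it pairs with the endonuclease INTS11 and INTS4 binds the pair. INTS9 (ENSG00000104299) had 1273, 1172 and 1228 counts in siControl and 536, 575 and 638 in siSFPQ. Each siSFPQ library lay far below each siControl library. INTS9 fell from 1226 ± 51.9 to 582 ± 41.6 normalized counts (SD, n = 3), a change of −52.6% (log2 fold change −1.08, SE 0.07, interval −1.22 to −0.94, edgeR adjusted p = 5e-15).

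INTS4 (ENSG00000149262, chr11:77874418-77994715) had 2361, 2536 and 2501 counts in siControl and 1538, 1741 and 1779 in siSFPQ. The conditions did not overlap, and INTS4 fell from 2470 ± 91.4 to 1682 ± 86.4 normalized counts (SD, n = 3; log2 fold change −0.55, SE 0.05, edgeR adjusted p = 2.72e-11). The third gene of the module moved the other way: INTS11 rose by 0.16 (log2; SE 0.04, edgeR adjusted p = 0.0023). Per kb of canonical transcript, INTS11 was at 29.1 CPM in siControl and 32.4 in siSFPQ, INTS4 at 17.2 and 11.7, and INTS9 at 10.5 and 4.99. INTS9 was therefore the lowest of these 3 subunits in both conditions.

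INTS2 belongs to the core scaffold of Integrator together with INTS1 and INTS7. INTS2 (ENSG00000108506, chr17:61865367-61928016) had 3687, 3922 and 4041 counts in siControl and 2228, 2568 and 2252 in siSFPQ. The lowest siControl library stood far above the highest siSFPQ library. INTS2 fell from 3889 ± 181 to 2344 ± 151 normalized counts (SD, n = 3), a change of −39.7% (log2 fold change −0.73, SE 0.05, edgeR adjusted p = 7.03e-15). INTS7 rose by 0.15 (edgeR adjusted p = 0.00432), and INTS1 was at 0.07 (edgeR adjusted p = 0.117; 0.0326 without siControl replicate 1).

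Other Integrator subunits rose. INTS5, which with INTS8 and INTS6 connects the complex to the phosphatase PP2A, had 1064, 1053 and 992 counts in siControl and 1311, 1217 and 1393 in siSFPQ. All siSFPQ libraries were higher, and INTS5 rose by 0.33 (log2; SE 0.06, edgeR adjusted p = 3.97e-05). INTS10, of the arm formed with INTS13 and INTS14, rose by 0.30 (edgeR adjusted p = 3.05e-07), and INTS8 by 0.17 (edgeR adjusted p = 0.00844; 0.178 without siSFPQ replicate 2). For INTS8, 20.7% of exon bases are shared with CCNE2 on the opposite strand. INTS3, INTS6, INTS12, INTS13 and INTS14 lay between −0.11 and 0.07 and were not called. INTS14, at −0.11, was called without siControl replicate 1 (edgeR adjusted p = 0.0134) or without siSFPQ replicate 3 (edgeR adjusted p = 0.0259). Over the 14 subunits 5 rose, 3 fell and 6 were not called, and the median was 0.07. These are shares of 35.7% higher and 21.4% lower, beside 31.4% and 38.8% of genes of at least 10 CPM.

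**Figure D2:**
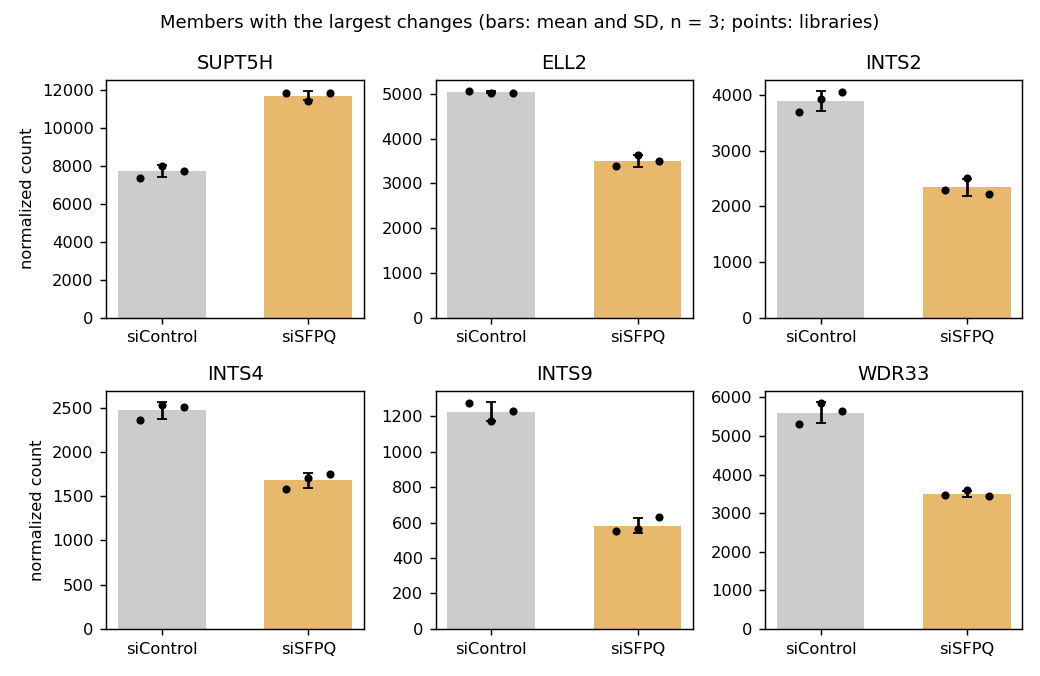
Normalized counts of the 6 members called with a log2 fold change over 0.5 in size, by condition, on axes that start at 0, with bars for the mean, error bars for the SD (n = 3) and points for the libraries. In each panel every siSFPQ library lies on the same side of all siControl libraries, above them for SUPT5H and below them for the others.

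CPSF recognises the polyadenylation signal and carries the endonuclease that cuts the transcript. The 2 subunits that contact the signal are WDR33 and CPSF4, and they went in opposite directions. WDR33 (ENSG00000136709, chr2:127701027-127811187) had 5312, 5843 and 5641 counts in siControl and 3366, 3677 and 3489 in siSFPQ. The conditions lay far apart, and WDR33 fell from 5607 ± 264 to 3504 ± 83.1 normalized counts (SD, n = 3), a change of −37.5% (log2 fold change −0.68, SE 0.04, edgeR adjusted p = 1.88e-15). SFT2D3, whose exon covers 25.7% of the exon bases of WDR33 on the opposite strand, had 0 counts in every library. For a gene that shares exons, such a count does not show that it was silent. The part of this overlap in the WDR33 value was not tested.

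CPSF4 had 2073, 2026 and 1996 counts in siControl and 2559, 2627 and 2649 in siSFPQ. It rose without overlap, by 0.36 on the log2 scale (SE 0.05, edgeR adjusted p = 4.14e-08). Per kb of canonical transcript, CPSF4 was at 24.4 CPM in siControl and 31.3 in siSFPQ, and WDR33 at 12.9 and 8.07.

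The remaining CPSF genes changed by smaller amounts. CPSF1, the scaffold, fell by 0.31 on the log2 scale (SE 0.04, edgeR adjusted p = 9.99e-09), with 12052 to 12193 counts in siControl and 9733 to 9874 in siSFPQ. CPSF3, the endonuclease, fell by 0.17 (edgeR adjusted p = 0.000636). CPSF2, its inactive partner, rose by 0.10 (edgeR adjusted p = 0.0384). SYMPK, the symplekin scaffold, rose by 0.23 (edgeR adjusted p = 8.01e-06), and FIP1L1, which recruits poly(A) polymerase, by 0.18 (edgeR adjusted p = 0.0466; 0.0779 with DESeq2). The calls of FIP1L1 and CPSF2 were lost when single libraries were left out. FIP1L1 was not called without siControl replicate 1 or without siSFPQ replicate 1 or 2 (edgeR adjusted p = 0.24, 0.0777 and 0.185). CPSF2 was not called without siControl replicate 1 or 2 or without siSFPQ replicate 1 or 2 (edgeR adjusted p from 0.0571 to 0.198). PAPOLA, the poly(A) polymerase itself, rose by 0.24 (edgeR adjusted p = 1.54e-06). RBBP6, an activator of cleavage, was at 0.01 and PABPN1, which binds the growing tail, at −0.08, neither of them called. PABPN1 shares 39.3% of its exon bases with the read-through gene BCL2L2-PABPN1.

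CFIm binds UGUA motifs upstream of the cleavage site and takes part in the choice between sites. NUDT21, its UGUA-binding subunit, had 2261, 2193 and 2441 counts in siControl and 1673, 1883 and 1938 in siSFPQ. All siSFPQ libraries were lower, and NUDT21 fell by 0.33 on the log2 scale (SE 0.05, edgeR adjusted p = 1.82e-06). An annotated gene with 0 counts in every library, ENSG00000288725, covers 45.9% of the exon bases of NUDT21 on the same strand. That count does not show that ENSG00000288725 was silent, and the part of the overlap in the NUDT21 value was not tested. The partners of NUDT21 did not fall with it. CPSF6 had 5421, 5639 and 5664 counts in siControl and 5971, 6391 and 6183 in siSFPQ and rose by 0.14 (edgeR adjusted p = 0.00208). CPSF7 had 7085, 7060 and 7237 counts in siControl and 7468, 7535 and 7391 in siSFPQ, with a log2 fold change of 0.06 and an interval of −0.01 to 0.14 (edgeR adjusted p = 0.187).

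CSTF binds the GU-rich element downstream of the cut. CSTF2, its RNA-binding subunit, had 2766, 2705 and 2711 counts in siControl and 3303, 3338 and 3317 in siSFPQ, and rose by 0.28 (log2; SE 0.04, edgeR adjusted p = 1.13e-06). CSTF2T, an intronless copy of CSTF2, had 3271, 3396 and 3509 counts in siControl and 3780, 3848 and 3960 in siSFPQ, and rose by 0.18 (log2; SE 0.04, edgeR adjusted p = 0.000452). Both genes lay higher in every siSFPQ library. How the counting treated reads that CSTF2 and CSTF2T cannot tell apart is not given in the sources used here.

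CSTF1 had 3323, 3094 and 3157 counts in siControl and 2816, 2825 and 2917 in siSFPQ and fell by 0.17 (log2; SE 0.04, edgeR adjusted p = 0.00191; 0.0501 when scaled to library size alone). CSTF3, which bridges the other 2 subunits, was at −0.01. In CFIIm, the termination factor PCF11 was at −0.01 and the RNA kinase CLP1 at 0.12, and neither was called, although CLP1 was without siControl replicate 3 (edgeR adjusted p = 0.0445). Over the 19 cleavage and polyadenylation members, 8 rose, 5 fell and 6 were not called, with a median of 0.06. Over the 22 elongation members tested, 6 rose, 5 fell and 11 were not called, with a median of −0.01. The shares higher and lower were 42.1% and 26.3% for cleavage and polyadenylation, and 27.3% and 22.7% for elongation. Among genes of at least 10 CPM they were 31.4% and 38.8%.

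Paralogs among the members were compared as ratios within a library, from counts per kb of canonical transcript, so that the ratio does not depend on depth. The ratio of CDK12 to CDK13 was 1.38, 1.47 and 1.42 in siControl and 1.82, 1.77 and 1.76 in siSFPQ. The ratio of ELL to ELL2 was 0.171, 0.169 and 0.161 in siControl and 0.298, 0.233 and 0.251 in siSFPQ. For CCNT1 to CCNT2 it was 0.988, 0.935 and 1.03 in siControl and 1.12, 1.16 and 1.20 in siSFPQ. In these 3 pairs every siSFPQ ratio was above every siControl ratio, by 0.33, 0.64 and 0.23 on the log2 scale between the means. CPSF6 to CPSF7 differed by 0.08 without overlap, between 0.405 and 0.423 in siControl and 0.423 and 0.449 in siSFPQ, and CSTF2 to CSTF2T by 0.10 with overlap. The two-sided exact permutation test gave p = 0.1 for the 4 pairs without overlap, which is the smallest p that 3 libraries against 3 allow, and p = 0.2 for CSTF2 to CSTF2T (0.125 and 0.2 after Benjamini-Hochberg adjustment over the 5 pairs). No pair could reach 0.05 in this design.

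**Figure D3:**
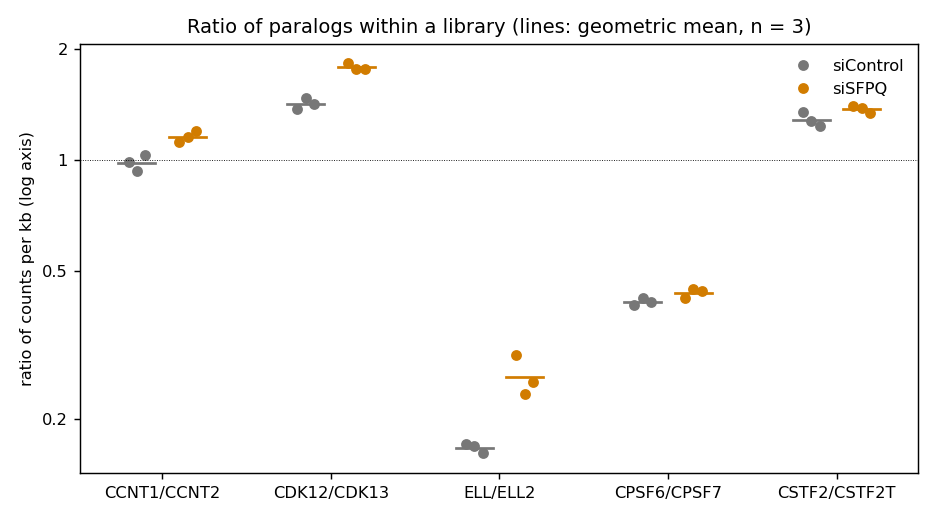
Ratio of counts per kb of canonical transcript between paralogs in each library (log axis), with a line at the geometric mean of each condition (n = 3). The siSFPQ points lie above the siControl points for every pair except CSTF2 to CSTF2T, and the widest gap is that of ELL to ELL2.

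Gene span, from start to end with introns included, was a property that the choice of members did not use. The 8 members of at least 100 kb were CDK12, CDK13, CDC73, INTS4, INTS6, INTS9, INTS12 and WDR33. Of these, 5 fell, 3 of them by over 0.5, the other 3 were not called, and the median log2 fold change was −0.28. Among the 2042 other protein-coding genes of that span and at least 10 CPM, 16.4% rose, 65.0% fell, 38.3% fell by over 0.5, and the median was −0.29. Of the 7 members under 10 kb, 4 rose and 3 were not called, with a median of 0.16. Of the 11 of 10 to 30 kb 4 rose and 4 fell, with a median of 0.06, and of the 29 of 30 to 100 kb 11 rose and 4 fell, with a median of 0.06. For other protein-coding genes of at least 10 CPM the medians of these bins were 0.03, 0.04 and −0.02. Of these other genes 36.1% rose and 26.7% fell under 10 kb. The shares were 39.3% and 28.3% at 10 to 30 kb, and 31.9% and 37.5% at 30 to 100 kb.

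Across the 55 members, Spearman's rho between span and log2 fold change was −0.301, and across the 9810 protein-coding genes of at least 10 CPM it was −0.294. With RefSeq spans, rho across the 55 members was −0.347. These are descriptions across genes that share the same libraries, and genes are not independent replicates. Among the 47 members under 100 kb rho was −0.050, so the relation in the members rests on the 8 longest genes, fewer than 20. Among the 7761 protein-coding genes of at least 10 CPM under 100 kb it dropped likewise, to −0.097. INTS2 and ELL2, at 62.7 kb and 76.8 kb, fell by over 0.5, while CDK12, INTS6 and INTS12, with longer annotated spans, were not called.

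The wider pathway was read from 5 further lists of 81 genes, of which 80 were tested: 19 rose, 24 fell, and the median was −0.02. These are shares of 23.8% and 30%, and 75 of the 80 had at least 10 CPM. Among all genes of at least 10 CPM 31.4% rose and 38.8% fell, so these lists were called less often than such genes. Of the 12 subunits of RNA polymerase II 3 rose (25%) and 4 fell (33.3%). POLR2L had 1825, 1763 and 1747 counts in siControl and 988, 1087 and 1115 in siSFPQ and fell by 0.75 on the log2 scale (SE 0.05, edgeR adjusted p = 1.49e-13). POLR2I, at a mean of 1.72 CPM, fell by 0.51 (edgeR adjusted p = 0.0325), with 77.2% of its exon bases shared with opposite-strand exons. Among 34 other elongation factors and enzymes of the polymerase tail, 9 rose and 9 fell (26.5% each). MNAT1, the assembly factor of the CDK7 kinase of TFIIH, had 1526, 1494 and 1611 counts in siControl and 455, 504 and 480 in siSFPQ. It was the only gene of these lists past 1.5, with a log2 fold change of −1.69 (SE 0.07, edgeR adjusted p = 5.02e-21). TCEA3, a TFIIS paralog at 25 to 62 counts, rose by 0.76 (SE 0.25, edgeR adjusted p = 0.0143).

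Of 8 further Integrator-associated genes 1 rose and 3 fell, none by over 0.5. Of 20 other factors of 3′ end formation and termination 6 rose and 6 fell (30% each), beside 31.4% and 38.8% of genes of at least 10 CPM. PPP1R10, the PNUTS subunit of the phosphatase that slows the polymerase past the poly(A) site, had 4916, 5021 and 5010 counts in siControl and 7913, 7604 and 7825 in siSFPQ and rose by 0.64 (SE 0.04, edgeR adjusted p = 2.15e-15). Of the 6 factors of histone pre-mRNA 3′ processing 2 fell and 4 were not called.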

How the data were processed

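Poly(A) RNA of U-2 OS cells was measured in 3 siControl and 3 siSFPQ libraries. The authors aligned reads with STAR 2.7.9a to Ensembl GRCh38 and deposited raw counts per gene. How the counting treated strand is not given in the sources used here. All 6 columns of the table were used.

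A gene was tested when its counts summed to at least 10. The test was the quasi-likelihood test of edgeR 4.0.16 (R 4.3.3) with TMM factors and no covariate, followed by Benjamini-Hochberg adjustment across all 29022 such genes. CPM and normalized counts use TMM-scaled library sizes. Library totals were 43469321 to 47119203 counts, and floors cover counting error only. Replicate libraries differed by more than sampling noise. The study describes the replicates as biological, without saying how separately they were cultured. The p-values measure the spread between these libraries. Spans, exons and canonical transcripts come from GENCODE release 44, which may differ from the annotation release of the authors, and 99.7% of identifiers matched.

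Members were chosen by name and not by a measured value, but members and lists alike were chosen with earlier results of these data known. Values in every library are given for members called with a log2 fold change over 0.5 in size, for the largest called rise and fall of each complex, and for 5 paralog pairs. From each other list, at most 2 rises and 2 falls past 0.5 are named. Genes that share exons with members were named after their values were seen. Alternatives were filterByExpr, no filter, RLE, library size alone, DESeq2 1.42.0, a replicate block, protein-coding genes only and each library left out, with RefSeq spans and a limit on shared exons added after the data were seen. The scripts were tested on simulated counts for this comparison, where edgeR called 168 of 200 changed genes and 5 others among 28200 tested, and DESeq2 163 and 2.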

Additional observations from a re-analysis of the deposited data

How the results depend on the processing

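With each library left out, 15 to 20 members were higher and 12 to 15 lower. The counts were 18 and 13 with DESeq2, 19 and 13 with RLE or filterByExpr, 17 and 15 without a filter and 20 and 13 among protein-coding genes. edgeR called 32 members and DESeq2 31, of which 31 were called by both. The replicate numbers were not taken to pair the libraries, since the deviations of same-numbered libraries correlated at 0.0084, 0.101 and 0.064 and not every library correlated best with its own number. With the replicate number as a block, 20 members were higher and 15 lower, and CCNT2 (edgeR adjusted p = 0.0383), INTS1 (0.0269) and INTS14 (0.02) were called.

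Scaling to library size alone shifted the median of all genes by 0.063. Past 0.5, it left 2 members higher and 3 lower. The median became 0.072 for the members, 0.039 for P-TEFb and 7SK, 0.0078 for CDK12/CDK13-cyclin K, 0.37 for DSIF and SPT6, 0.18 for NELF, 0.054 for PAF1 and RTF1, −0.051 for ELL, AFF4 and TFIIS, 0.13 for Integrator, 0.12 for CPSF, 0.13 for CFIm and 0.15 for CSTF. CDK12, not called in either fit, changed sign to 0.0078.

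With each library left out, members past 0.5 numbered 1 to 2 higher and 3 to 5 lower. The median ranged from −0.00055 to 0.038 for the members, from −0.043 to −0.0027 for P-TEFb and 7SK, from 0.10 to 0.15 for NELF, from −0.055 to 0.027 for PAF1 and RTF1, from −0.14 to −0.094 for ELL, AFF4 and TFIIS, from 0.031 to 0.081 for Integrator, from 0.025 to 0.080 for CPSF and from 0.066 to 0.12 for CSTF.

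Of 325 values recomputed for the 25 members given in every library, 314 kept their direction and their side of the threshold, 6 lost a call, 4 gained one and 1 changed sign. Of the other 30 tested members, 9 had a call that changed. The cause of these shifts was not tested. The members that lost a call had changes under 0.2, and 2 members had too few counts to be tested.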

Other observations

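The 3 subunits of the CDK7 kinase of TFIIH, which phosphorylates the polymerase tail at the start of transcription, moved apart, and they were set side by side after their values were seen. MNAT1 fell by 1.69 on the log2 scale, while CDK7 had 2365, 2325 and 2601 counts in siControl and 3068, 3137 and 3285 in siSFPQ and rose by 0.38 (SE 0.05, edgeR adjusted p = 2.99e-08). Cyclin H (CCNH) rose by 0.21 (SE 0.06, edgeR adjusted p = 0.00255), with 21.2% of its exon bases shared with opposite-strand exons. MNAT1 spans 235224 bases, CDK7 42636 and CCNH 94515, and the part of span in these changes was not tested. POLR2A, the catalytic subunit of RNA polymerase II, rose by 0.36 (SE 0.04, edgeR adjusted p = 1.78e-08).

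3 genes of the other lists that fell by just under 0.5 were picked after their values were seen. They do not stand for their lists, nor are they all the genes with such a fall. RPRD1B, which was not picked, had a log2 fold change of −0.44 (SE 0.04, edgeR adjusted p = 2.63e-10). INTS15, a further Integrator subunit, fell by 0.43 (SE 0.04, edgeR adjusted p = 2.92e-10), INIP of the INTS3 complex by 0.44 (SE 0.05, edgeR adjusted p = 3.48e-09), and the tail phosphatase SSU72 by 0.47 (SE 0.04, edgeR adjusted p = 4.52e-11). In all 3 genes every siSFPQ library lay below every siControl library.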
